A study of Sus scrofa with 6 samples.

Results

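The EGF family around HBEGF was read in piglet lung just before and just after birth. The family was taken as 10 genes, the ligands HBEGF, EGF, TGFA, AREG, EREG, BTC and NRG1 and the receptors EGFR, ERBB2 and ERBB3. Their rows were found by gene symbol, and the set was chosen with earlier results of these data known. A row of the mRNA table carried the symbol of 9 of them, among 14579 mRNAs in all, while the identifier that the reference gives for EREG matched no row, so EREG was not analysed here. Lung RNA came from 6 female hybrid piglets with a Tibetan father and a Meishan mother, 1 library per piglet. The 3 piglets of the fetal group (labelled prenatal) were sampled on the last day before birth, with pregnancy counted as 113 days, and the 3 of the neonatal group were sampled 2 days after birth. Each piglet came from a different sow, the sows were fed and housed alike, and the labels name no transgene or treatment. The series text names both caesarean and parturition without saying which sows had which, so a part of the mode of delivery in the differences was not tested. Libraries are called Fetal1 to Fetal3 and Neonatal1 to Neonatal3 after their replicate numbers.

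EGF family ligands are made as membrane-anchored precursors, and metalloproteases of the ADAM family cut them loose so that they can act on neighbouring cells. Released ligand brings receptors of the ERBB family together in pairs, which switches on their kinase and passes a signal to the MAP kinase and PI3 kinase relays. HBEGF binds heparan sulfate and acts through EGFR and ERBB4. In developing lung this signalling is known for its part in branching, in epithelial growth and maturation and in the crosstalk of epithelium and mesenchyme before the alveoli form.

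Levels are FPKM, fragments scaled by the authors to transcript length and to the mapped fragments of the library, which can be compared between genes. A difference between the groups is neonatal minus fetal on log2(FPKM + 1), fitted with limma across all mRNAs, with the Benjamini-Hochberg adjusted p and a threshold of 0.05. This scale understates the change of genes with low FPKM. The table holds no read counts, so the depth behind a single value is unknown and the spread between the 3 piglets of a group was the error used. A value of 0 can be a failed estimate, and such a gene is only said to be listed at 0. In whole lung, fewer cells of a type and less RNA per cell cannot be told apart.

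The surfactant gene SFTPC stood between 3171 and 8790 FPKM in the 6 libraries and the alveolar type I gene AGER between 406 and 767 FPKM, so lung RNA was present in each. Past the threshold were 6.87% of all mRNAs, 5.41% higher and 1.45% lower in the neonatal group. The median difference of all mRNAs was 0.13, and it became -0.0090 after median-of-ratios scaling of the samples and -0.038 after quantile normalization, which each lowered the share of higher calls, from 78.8% to 66.0% and 57.9%. Small differences are therefore read against this shift. Among mRNAs, between 3.02% and 5.68% were listed at 0 in a library.

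None of the 9 measured members was past the threshold in limma, against the 6.87% of all mRNAs. Missing the threshold does not show that a member was the same in both groups, and the intervals given with the members show which differences remain possible. An unadjusted p under 0.05 was reached by 4 of them, HBEGF, BTC, EGF and EGFR, against 24.2% of all mRNAs. The groups did not overlap for 3 members, BTC, which was higher, and EGF and EGFR, which were lower in the neonatal group. That count stands beside 30.5% of all mRNAs, 20.9% higher and 9.64% lower. Every mRNA of the table exceeds 0.5 FPKM in 1 or more libraries, a limit that BTC and NRG1 met in Neonatal1 alone and AREG in Neonatal3 alone. With fetal values of 0, BTC could only be in the table as a gene higher in the neonatal group, so nothing is read from these counts. The mean was higher in the neonatal group for 4 members and lower for 5, and the median difference of the 9 was -0.0086. EGFR and ERBB2 led the levels of the family, and of the ligands HBEGF had the highest neonatal mean.

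**Figure D1:**
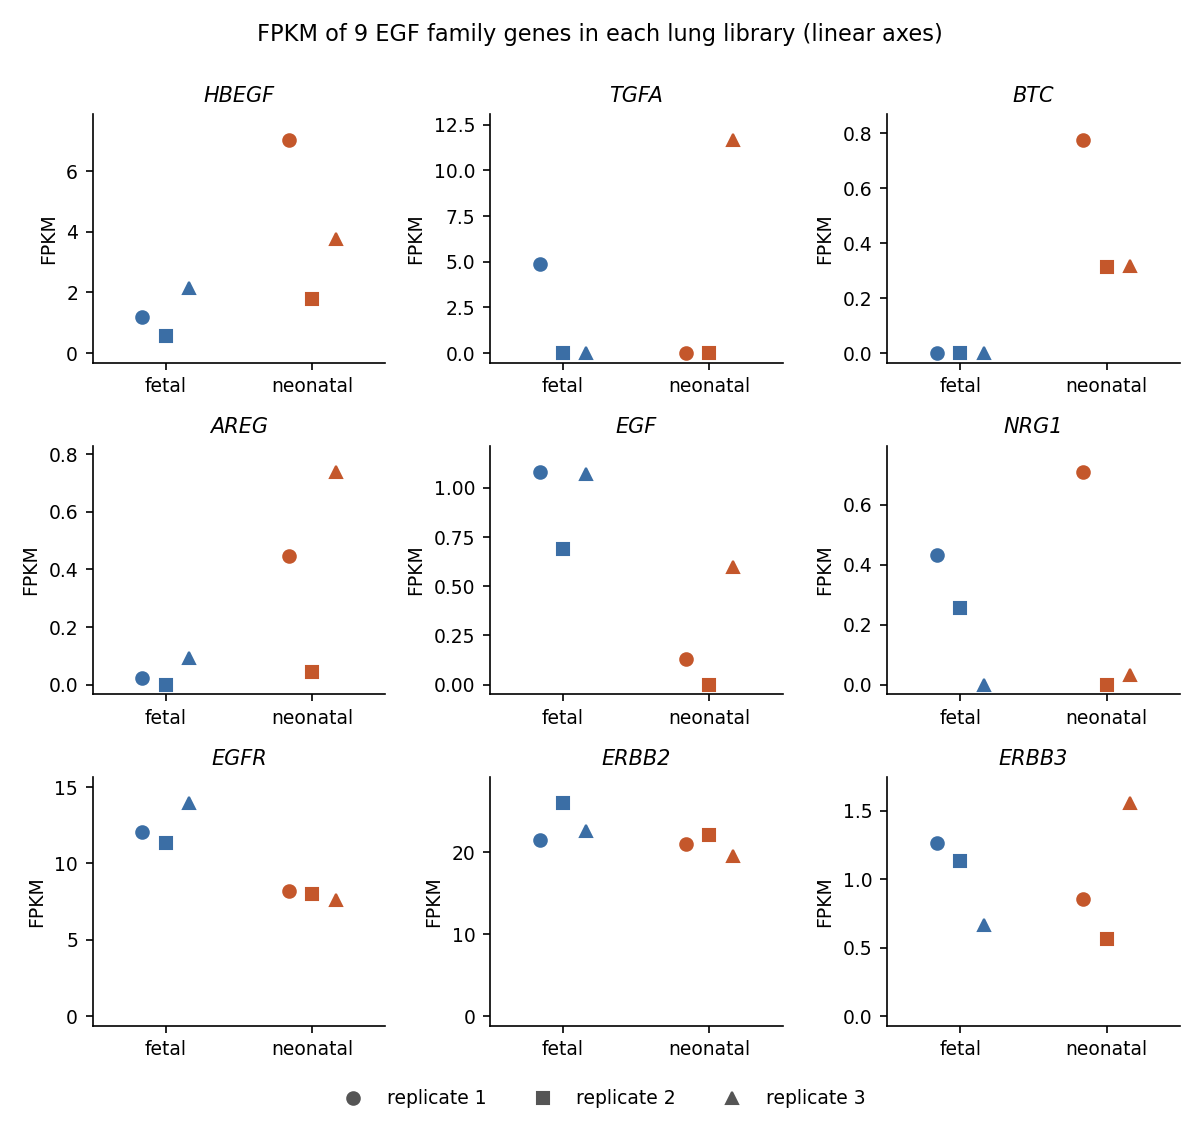
FPKM of each measured member (vertical, linear, its own scale per panel) in the 3 fetal (blue) and 3 neonatal (orange) libraries, with the marker shape giving the replicate number. The EGFR points of the groups are apart, between 11.4 and 14.0 against 7.61 and 8.17, whereas HBEGF overlaps through Fetal3 and Neonatal2, and TGFA is listed at 0 in 4 of the 6 libraries.

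HBEGF, the heparin-binding ligand, stood at 1.19, 0.576 and 2.16 FPKM in Fetal1, Fetal2 and Fetal3. In Neonatal1, Neonatal2 and Neonatal3 it stood at 7.02, 1.79 and 3.77 FPKM. Neonatal1 was far above the others, and the groups overlapped because Fetal3 exceeded Neonatal2. The means were 1.31 ± 0.800 and 4.20 ± 2.64 FPKM (SD, n = 3 each), so that the neonatal mean was 3.21 times the fetal one. The difference was 1.10 on log2(FPKM + 1), with a 95% interval from 0.11 to 2.09 and a limma adjusted p of 0.169. It was 0.72 without Neonatal1 and 1.48 without Neonatal2, and its adjusted p stayed between 0.118 and 0.417 under all 13 alternatives run.

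HBEGF is also made by myeloid cells, so markers of these were read in the same libraries. Of the neutrophil list, 3 of 5 genes had a row. S100A8 and S100A9 were past the threshold and higher in the neonatal group, against 5.41% of all mRNAs. Their summed FPKM with CSF3R was 38.0 to 59.0 in the fetal and 310 to 423 in the neonatal libraries, with no gene of the list at 0. Of the macrophage list, 5 of 6 genes had a row, none was past the threshold, and the sums of 114 to 339 and 263 to 662 FPKM, most of them MARCO, overlapped. The mean was higher in the neonatal group for 5 of the 5, with a median difference of 1.08. An unadjusted p under 0.05 in limma was reached by 4, against 24.2% of all mRNAs. CD68 stood at 11.4, 5.18 and 7.84 FPKM before birth and 15.5, 20.1 and 25.2 FPKM after it (limma adjusted p = 0.0506). MRC1 stood at 4.89, 2.204 and 4.15 FPKM before birth and 6.19, 7.13 and 8.47 FPKM after it (limma adjusted p = 0.112). These 2 of the 5 did not overlap, beside 30.5% of all mRNAs. MARCO and MSR1 overlapped, and so did CSF1R, with a difference of 0.06 (limma adjusted p = 0.920). Neonatal1, the library with the most HBEGF, had the lowest sum of its group for both lists. The part of these cells in the level of HBEGF was not tested.

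The lncRNA TU64359, which the study places beside HBEGF on the opposite strand, spans chr2:148043887-148046077 on the plus strand of Sscrofa10.2. It was listed at 0 in all 3 fetal libraries and in Neonatal2, and stood at 0.661 FPKM in Neonatal1 and 0.700 FPKM in Neonatal3. The lncRNA table holds only transcripts that exceeded 0.1 FPKM in 2 or more replicates of either group, a limit that TU64359 met through Neonatal1 and Neonatal3 alone, so nothing is read from its presence in these libraries. In limma over the 19310 lncRNAs its adjusted p was 0.554, with 0.00518% of lncRNAs past the threshold. The study reports both TU64359 and HBEGF as significantly raised in the neonatal group, by a test that was not run here. The lncRNA table had more values at 0 in Fetal3, Neonatal2 and Neonatal3, between 27.2% and 31.3%, than in Fetal1, Fetal2 and Neonatal1, between 9.29% and 13.2%, and the part of this in the value of 0 in Neonatal2 was not tested. The 1 other lncRNA within 100 kb, TU64390, was named after its values were seen. Its values were 6.73, 5.39 and 0.359 FPKM in the fetal and 2.24, 10.9 and 0.350 FPKM in the neonatal libraries, with overlap (limma adjusted p = 0.978).

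TGFA, a ligand that acts through EGFR, was listed at 0 in Fetal2, Fetal3, Neonatal1 and Neonatal2. It was measured at 4.89 FPKM in Fetal1 and at 11.7 FPKM in Neonatal3, which is the highest value of any ligand. Values above 0 and values listed at 0 thus lay in both groups, and the fitted difference of TGFA of 0.37 had an interval from -2.22 to 2.95 (limma adjusted p = 0.863). The sign of this difference turned without Fetal2, Fetal3 or Neonatal3, with a lowest value of -0.85 without Neonatal3.

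BTC, betacellulin, which activates EGFR and ERBB4, was listed at 0 in each fetal library. In the neonatal libraries it stood at 0.775, 0.313 and 0.318 FPKM. The groups did not overlap, but all values were under 1 FPKM, and the limma adjusted p was 0.183. No fold can be given against a group listed at 0.

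AREG, amphiregulin, a ligand of EGFR, had 0.0221, 0 and 0.0942 FPKM in the fetal libraries. The neonatal libraries held 0.446, 0.0426 and 0.740 FPKM. Neonatal2 lay within the fetal range while Neonatal1 and Neonatal3 lay above it, and the interval of the difference ran from -0.17 to 0.99 (limma adjusted p = 0.351). In RefSeq's annotation of Sscrofa11.1, EPGN, EREG, AREG and BTC lie in this order on chromosome 8 with 0 other protein-coding genes between them. Of these 4 neighbours, AREG and BTC had a row in the mRNA table.

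EGF, the founding ligand of the family, had 1.08, 0.690 and 1.07 FPKM in the fetal libraries. In the neonatal libraries it was 0.131 and 0.599 FPKM in Neonatal1 and Neonatal3, and it was listed at 0 in Neonatal2. Each neonatal value was under each fetal value, opposite in direction to the mean difference of HBEGF. The difference was -0.67, with an interval from -1.25 to -0.09 (limma adjusted p = 0.157).

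NRG1, neuregulin 1, a ligand of ERBB3 and ERBB4, was measured at 0.433 and 0.256 FPKM in Fetal1 and Fetal2 and was listed at 0 in Fetal3. It was 0.712 and 0.0327 FPKM in Neonatal1 and Neonatal3 and was listed at 0 in Neonatal2. The groups overlapped, with Neonatal1 above every fetal value, and the difference of -0.01 had an interval from -0.68 to 0.66 (limma adjusted p = 0.987).

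Summed over the 6 measured ligands, the fetal libraries held 7.61, 1.52 and 3.33 FPKM and the neonatal libraries 9.09, 2.15 and 17.1 FPKM. The sums overlapped, and TGFA was the largest part of them in Fetal1 and Neonatal3. Of the sum without TGFA, HBEGF made up 43.6%, 37.9% and 64.9% in the fetal libraries. In the neonatal libraries this share was 77.3%, 83.4% and 69.1%. HBEGF was thus the leading ligand apart from TGFA in all neonatal libraries, and in Fetal1 and Fetal3 but not Fetal2, where EGF was higher at 0.690 against 0.576 FPKM. Neonatal1 held the highest value of all libraries for HBEGF, BTC and NRG1, and Neonatal3 for TGFA, AREG and ERBB3, while Neonatal2 had TGFA, EGF and NRG1 listed at 0.

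EGFR, the receptor for HBEGF, EGF, TGFA, AREG and BTC, had 12.0, 11.4 and 14.0 FPKM in the fetal libraries. It stood at 8.17, 8.02 and 7.61 FPKM in the neonatal libraries. Every neonatal value was under every fetal value, and the neonatal values lay close together. The means were 12.5 ± 1.34 and 7.93 ± 0.293 FPKM (SD, n = 3 each), the neonatal mean being 63.7% of the fetal one. The difference was -0.59, with an interval from -0.97 to -0.20 and a limma adjusted p of 0.0843. With the samples scaled by median-of-ratios it was -0.75 and past the threshold, at an adjusted p of 0.0422, where 6.76% of all mRNAs were called and 2.3% called lower. With quantile normalization it was -0.77, at an adjusted p of 0.0328, where 7.92% were called and 3.33% called lower. With any 1 library left out the difference stayed between -0.64 and -0.51, with an adjusted p of 0.0947 to 0.186.

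ERBB2, the receptor that binds no ligand itself and serves as a partner for the others, had 21.5, 26.0 and 22.6 FPKM in the fetal libraries. The neonatal libraries held 21.0, 22.1 and 19.6 FPKM. The groups overlapped, and the difference of -0.15 had an interval from -0.54 to 0.24 (limma adjusted p = 0.610). Under quantile normalization the difference of ERBB2 was -0.40, short of the threshold as well (limma adjusted p = 0.239).

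ERBB3, the neuregulin receptor with a nearly inactive kinase, had 1.27, 1.14 and 0.663 FPKM in the fetal libraries. It stood at 0.855, 0.564 and 1.56 FPKM in the neonatal libraries. The neonatal values lay on both sides of the fetal ones, and the difference of -0.04 had an interval from -0.64 to 0.56 (limma adjusted p = 0.941). ERBB4, the remaining receptor of the family and no member of the set, was measured at 1.62, 2.26 and 1.67 FPKM before birth and 1.91, 0.686 and 0.579 FPKM after it, with overlap through Neonatal1 (limma adjusted p = 0.303). The ligands EPGN, NRG2, NRG3 and NRG4 matched no row by symbol and were not analysed here.

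**Figure D2:**
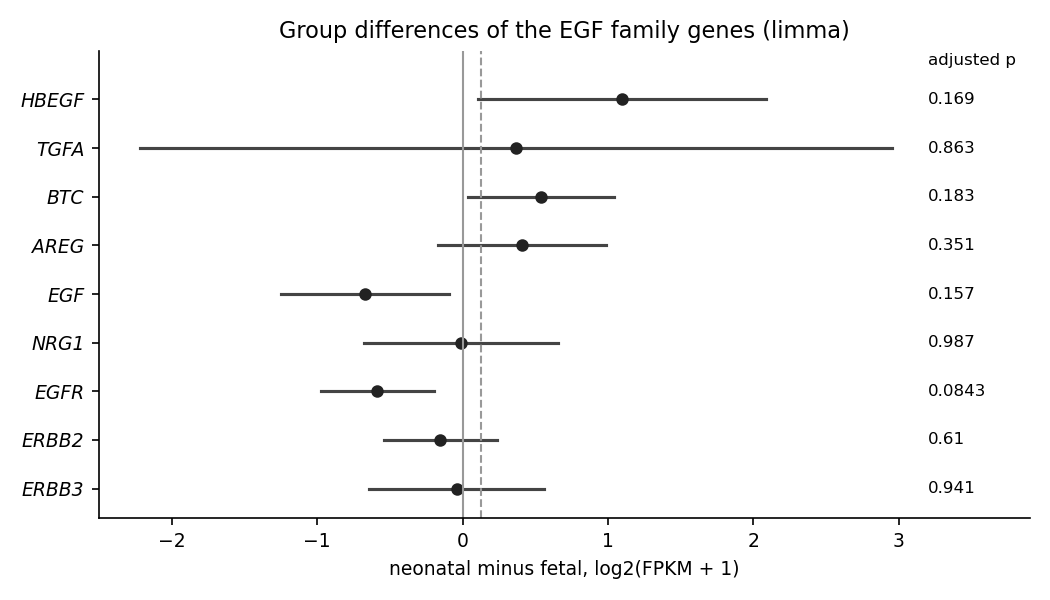
Neonatal minus fetal difference on log2(FPKM + 1) for each measured member (points) with the 95% interval from limma (lines) and the adjusted p at the right, with the dashed line at the median of all mRNAs, 0.13. The intervals of HBEGF, BTC, EGF and EGFR leave out 0, no adjusted p is 0.05 or less, and the interval of TGFA spans from -2.22 to 2.95.

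Receptor levels were ordered the same way in all 6 libraries for the top of the family, with ERBB2 above EGFR and EGFR above every ligand except TGFA in Neonatal3. In the fetal group the order of the means went on with TGFA, HBEGF, ERBB3, EGF, NRG1, AREG and BTC. The ranges of neighbours from TGFA to EGF overlapped, EGF was above NRG1 in all 3 libraries without overlap, and the ranges of NRG1, AREG and BTC overlapped again. In the neonatal group HBEGF followed EGFR without overlap, and then came TGFA, ERBB3, BTC, AREG, NRG1 and EGF, where each range overlapped the next. By mean FPKM, EGFR stood at the 74.7th percentile of all mRNAs in the fetal group and at the 58.2nd in the neonatal group, and ERBB2 at the 86.7th and 82.0th. HBEGF stood at the 19.5th and the 40.3rd.

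Ratios of 2 genes within a library do not depend on a factor that scales the whole library, though quantile normalization can change them. They were computed for 4 pairs chosen after the values had been seen, and are given as descriptions without a test. EGFR over ERBB2 was 0.560, 0.437 and 0.616 in the fetal libraries and 0.389, 0.362 and 0.389 in the neonatal libraries, without overlap. EGFR over ERBB2 was thus 1.40 times higher before birth as a ratio of geometric means. As a share of the summed FPKM of the 3 measured member receptors, EGFR made up 34.6%, 29.5% and 37.5% before birth and 27.2%, 26.1% and 26.5% after it.

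HBEGF over EGFR, the ligand per receptor RNA, was 0.0987, 0.0507 and 0.155 in the fetal libraries. In the neonatal libraries it was 0.859, 0.223 and 0.496. This ratio did not overlap between the groups although HBEGF alone did, and it was 4.97 times higher after birth as a ratio of geometric means. EGFR, the divisor, was itself lower without overlap after birth, which adds to the separation. Neonatal1 and Neonatal2 differed widely in this ratio.

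**Figure D3:**
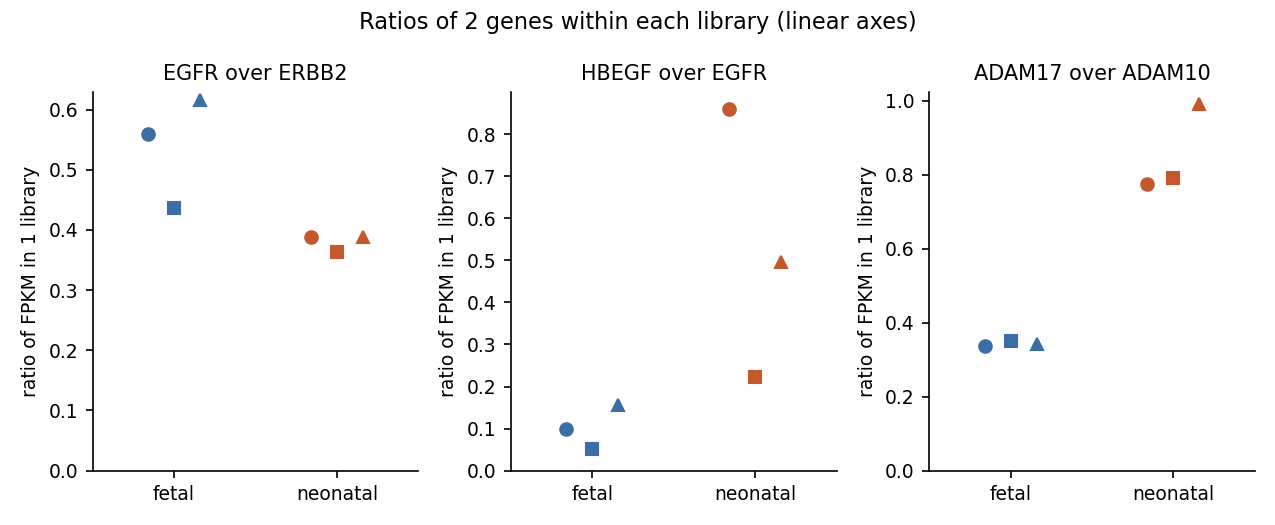
Ratios of the FPKM of EGFR to ERBB2, HBEGF to EGFR and ADAM17 to ADAM10 (vertical, linear from 0) in the 3 fetal (blue) and 3 neonatal (orange) libraries, with circles, squares and triangles for replicates 1, 2 and 3. None of the 3 ratios overlaps between the groups, and the ratio of HBEGF to EGFR spreads from 0.223 to 0.859 after birth. For ADAM17 to ADAM10 this follows from the genes themselves, which lie apart in opposite directions.

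EGFR is made in epithelial and mesenchymal cells, and their marker lists were read beside it. Of the mesenchymal list, 4 of 6 genes had a row. ACTA2 and TAGLN, contractile proteins of smooth muscle and myofibroblasts, were past the threshold and higher in the neonatal group, against 5.41% of all mRNAs. The summed FPKM of the list was 361.5 to 531 before birth and 1047 to 1687 after it, most of it TAGLN and ACTA2. COL1A2 was higher without overlap, with means of 83.4 and 139 FPKM (limma adjusted p = 0.0670). PDGFRB overlapped, with means of 15.2 and 17.9 FPKM (limma adjusted p = 0.485). Of the alveolar type II list, 6 of 7 genes had a row with 0 past the threshold, and the sums were 4605 to 5180 and 6153 to 11208 FPKM. Most of that sum is SFTPC, which was higher without overlap in the neonatal group, as were SFTPB and SFTPA1. ABCA3, SLC34A2 and NAPSA overlapped, with NAPSA means of 74.0 FPKM before birth and 62.4 FPKM after it. For the alveolar type I list, with 3 of 6 genes, the sums of 486 to 865 and 488 to 937 FPKM overlapped. For the secretory and basal list, with 3 of 6 genes, the sums of 2275 to 6890 and 900 to 2907 FPKM overlapped too, and KRT5 and KRT14 had no matched row. That sum is mostly SCGB3A2, while the club cell protein SCGB1A1 stood at 139, 119 and 99.8 FPKM before birth and 62.2, 0.213 and 62.0 FPKM after it, without overlap (limma adjusted p = 0.265). No listed gene of these 4 lists was at 0 in any library. Their part in the lower EGFR was not tested.

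Of the endothelial list, 4 of 6 genes had a row with 0 past the threshold, and the sums were 379 to 476 FPKM before birth and 559 to 809 FPKM after it. CLDN5 alone made the higher sum, with means of 229 and 537 FPKM, while KDR had means of 57.2 and 43.0 FPKM without overlap, TEK of 8.40 and 5.86 FPKM and PECAM1 of 129.6 and 133.9 FPKM. The ciliated, lymphocyte and erythroid lists, with 2, 4 and 4 matched genes of 6 each, also had 0 past the threshold.

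Release of the ligands depends on ADAM proteases and their helpers, a list of 11 genes of which 10 had a row. Past the threshold were 2 of the 10, both higher in the neonatal group, against 5.41% of all mRNAs called higher, and 0 were lower. The median difference of the list was 0.14, close to the 0.13 of all mRNAs. ADAM17, the main sheddase of HBEGF, TGFA and AREG, had 10.21, 9.33 and 9.20 FPKM in the fetal libraries. It stood at 16.1, 16.9 and 20.9 FPKM in the neonatal libraries. Its groups did not overlap, and the rise of 0.84 had an interval from 0.43 to 1.24 (limma adjusted p = 0.0340). ADAM17 stayed past the threshold without Neonatal1, at 0.0447, and reached 0.0859 to 0.129 without any 1 of Fetal1, Fetal2, Fetal3, Neonatal2 or Neonatal3.

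ADAM19, a protease that cuts neuregulin precursors, rose from 3.48, 2.85 and 3.32 FPKM to 6.30, 6.99 and 6.16 FPKM. The difference was 0.83, with an interval from 0.42 to 1.24 (limma adjusted p = 0.0347). After median-of-ratios scaling the adjusted p of ADAM19 was 0.0582, and with any 1 library left out it was 0.0589 to 0.143. RHBDF2, also called iRhom2, which carries ADAM17 to the cell surface, stood at 2.14, 1.60 and 1.62 FPKM before birth and 3.38, 4.27 and 6.50 FPKM after it, without overlap (difference 1.01, limma adjusted p = 0.0552). Its close relative RHBDF1 had a difference of 0.27, with an interval from -0.16 to 0.70.

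ADAM10, the main sheddase of EGF and BTC, was named after its values were seen. It stood at 30.3, 26.6 and 26.9 FPKM in the fetal libraries and 20.8, 21.4 and 21.1 FPKM in the neonatal libraries, without overlap. The difference was -0.39 (limma adjusted p = 0.189), and it was past the threshold under quantile normalization. ADAM17 over ADAM10 was 0.337, 0.351 and 0.341 before birth and 0.776, 0.791 and 0.990 after it, 2.47 times higher. ADAM19 over ADAM10 was 0.107 to 0.123 before birth and 0.292 to 0.327 after it, 2.67 times higher. ADAM17 and ADAM19 were higher and ADAM10 lower without overlap, so neither ratio could overlap and nothing more is read from them. CD9, a membrane partner of the HBEGF precursor, was 14.9 FPKM in Neonatal1, the library with the most HBEGF, and between 33.7 and 39.2 FPKM in the other 5 libraries.

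Inside the cell, the list of adaptors and kinases had 19 of 25 genes with a row, and 0 were past the threshold in limma, against 6.87% of all mRNAs, with 4 at an unadjusted p under 0.05, against 24.2%. The median difference was 0.11, beside 0.13 over all mRNAs. GAB1, an adaptor that links EGFR to PI3 kinase, showed the largest absolute difference, -0.59, from 8.09, 6.84 and 6.64 FPKM to 4.45, 4.73 and 4.15 FPKM without overlap (limma adjusted p = 0.0935). The next were SRC, a kinase activated beside EGFR, and PTPN11, the phosphatase SHP2, with differences of 0.55 and 0.55. Their limma adjusted p values were 0.131 and 0.111, and both were higher in each neonatal than in each fetal library.

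Genes that restrain the receptors or the MAP kinase relay had a row for 9 of 16, and 0 were past the threshold in limma, against 6.87% of all mRNAs, with 1 at an unadjusted p under 0.05, against 24.2%. The median difference of this list was -0.21, with the mean of 6 of the 9 lower after birth, as it was for 5850 of all 14579 mRNAs. SPRY2, a Sprouty inhibitor of the relay, was measured at 7.83, 9.65 and 12.6 FPKM before birth and 9.81, 5.98 and 3.16 FPKM after it, with overlap through Neonatal1 (difference -0.67, limma adjusted p = 0.291). DUSP4, a MAP kinase phosphatase, had a difference of -0.63 with overlap (limma adjusted p = 0.267). LRIG1, a membrane protein that promotes the breakdown of ERBB receptors, stood at 14.6, 13.0 and 11.4 FPKM before birth and 9.31, 8.51 and 8.61 FPKM after it, without overlap (difference -0.51, limma adjusted p = 0.125). LRIG1, like EGFR, was lower in each neonatal library than in each fetal one.

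A list of 10 genes often read as output of the MAP kinase relay had 8 with a row, SPRY2 and DUSP4 among them. Past the threshold was 1 of the 8, CCND1, a cyclin of the G1 phase that also answers to other pathways, against 6.87% of all mRNAs. The median difference of the list was 0.32, with 5 means higher and 3 lower, beside 8729 higher and 5850 lower over all mRNAs. CCND1 rose by 1.58 (limma adjusted p = 0.0134), and its adjusted p was 0.0203 without Neonatal1 and 0.0524 to 0.0718 without any 1 of the other 5 libraries. ETV4, a transcription factor of the ETS family, was measured at 0.352, 0.468 and 0.799 FPKM before birth and 1.26, 3.15 and 4.06 FPKM after it, without overlap (difference 1.24, limma adjusted p = 0.0670). PHLDA1, a gene induced by growth factors, stood at 25.8, 25.8 and 40.4 FPKM before birth and 53.1, 58.8 and 56.2 FPKM after it, also without overlap (difference 0.88, limma adjusted p = 0.0594). ETV5, the relative of ETV4, had a difference of 0.05, with an interval from -0.39 to 0.48.

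**Figure D4:**
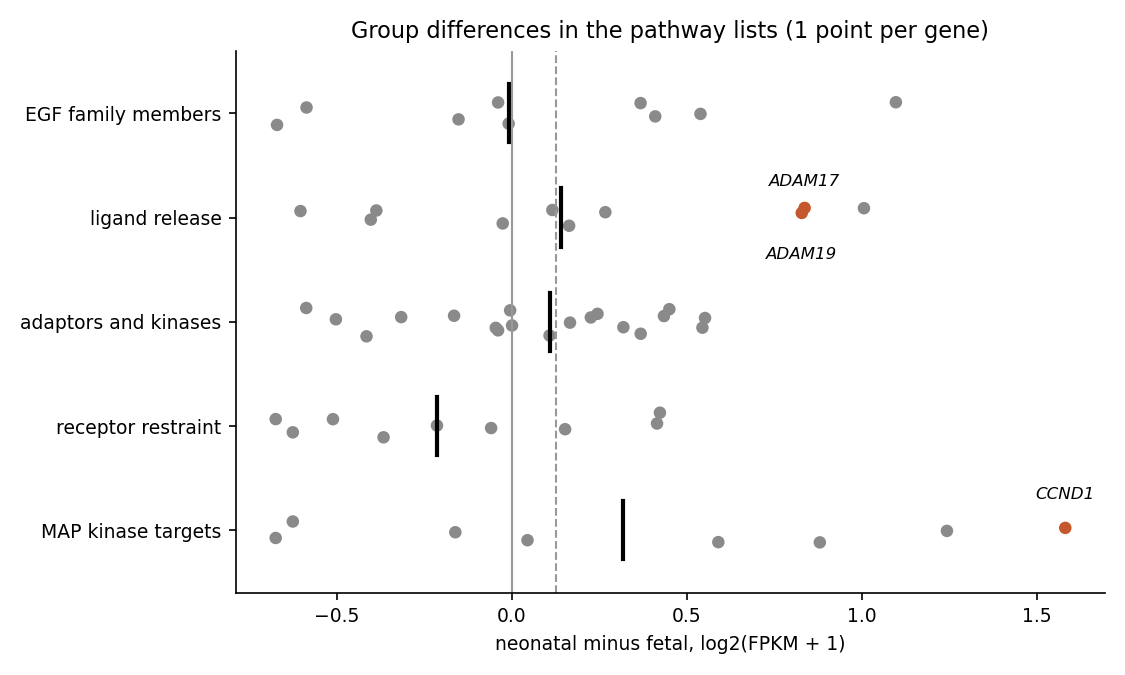
Neonatal minus fetal difference on log2(FPKM + 1) of each gene (points) in the EGF family and in 4 lists around it, with the median of each list as a black bar and the median of all mRNAs, 0.13, as a dashed line. Genes past the threshold are orange and named: ADAM17 and ADAM19 among 10 release genes and CCND1 among 8 MAP kinase targets.

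The genes most like HBEGF over the 6 libraries were sought by Pearson's r on log2(FPKM + 1) among 9839 other rows with a symbol. This is a description over 6 libraries that fall into 2 groups, without a test. The 5 with the highest r were AFAP1, an actin filament protein, SLC44A2, a choline transporter-like protein, PDIA3, a protein disulfide isomerase, THOC6, a subunit of the mRNA export complex THO, and FBLN5, the elastic fibre protein fibulin 5. Their coefficients were 0.98, 0.98, 0.97, 0.97 and 0.97. FBLN5 was measured at 15.1, 12.6 and 18.6 FPKM before birth and 31.9, 19.0 and 19.8 FPKM after it, with its highest value in Neonatal1 as for HBEGF. None of the 5 was past the threshold in limma, with adjusted p values from 0.206 to 0.529. Among the members the coefficients with HBEGF ran from -0.73 for ERBB2 to 0.81 for AREG and 0.87 for BTC, and both of the latter are in the table through a single neonatal library, so nothing is read from their likeness.

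The call for EGFR depended on scaling. HBEGF was past the threshold under none of the 13 alternatives.

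**Figure D5:**
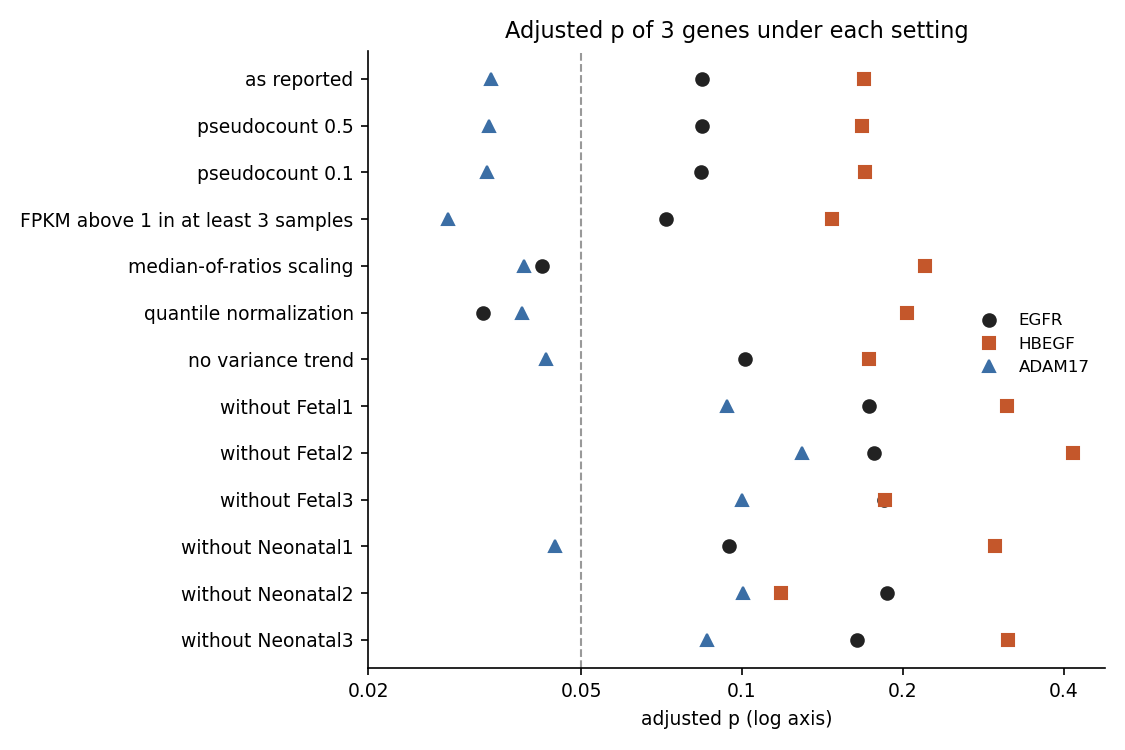
Adjusted p from limma (horizontal, log axis) of EGFR, HBEGF and ADAM17 in the reported fit and under 12 of the 13 alternatives, all but the replicate block, with the dashed line at 0.05. EGFR crosses the line under median-of-ratios scaling (0.0422) and quantile normalization (0.0328), ADAM17 lies left of it under the 7 settings drawn with all 6 libraries and without Neonatal1 and right of it when any other library is left out, and HBEGF lies right of it throughout.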

How the data were processed

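Lung RNA of 6 piglets, 3 prenatal and 3 neonatal, was sequenced by the authors from strand-specific Ribo-Zero libraries. The authors aligned the reads with TopHat to Sscrofa10.2, and Cufflinks gave the FPKM of both deposited tables. The submitters' processing notes name TopHat2 2.1.0, Cufflinks 2.2.1 and StringTie 1.2.2. The authors kept mRNAs with FPKM above 0.5 in at least 1 sample, and lncRNAs, assembled with StringTie, that exceeded 0.1 in 2 or more replicates of either group. Symbols of 9478 mRNAs came from a reference table and of 362 more from the study's list of DE genes. Of its columns, which also hold fold changes and q values, the gene names alone were used. All 12 value columns matched a sample by name and 0 were left over. The tables hold no read counts, so the depth per sample was not computed here.

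For mRNAs and for lncRNAs, log2(FPKM + 1) was fitted with limma 3.58.1 under R 4.3.3, its variance trend switched on. The Cuffdiff test of the study needs reads and was not run. Benjamini-Hochberg adjustment ran over each whole table, with 0.05 or less past the threshold. On simulated data with few changed genes, the fit found most large changes but none of a size near the HBEGF difference. Fewer genes were changed there than were called in the real data, which makes the adjustment stricter. In the real data ADAM17 and ADAM19 were past the threshold at differences of 0.84 and 0.83. The simulation therefore does not give the smallest difference that the fit can call here, and nothing is read from it for HBEGF. Alternatives were pseudocounts of 0.5 and 0.1, median-of-ratios scaling, quantile normalization, a limit of FPKM above 1 in 3 samples or more, no variance trend, a block for the replicate number, and leaving out each of the 6 samples. Within-library ratios (Python 3.11.15, numpy 2.4.6, pandas 2.3.3) are descriptions without a test. Figures were drawn with matplotlib 3.10.9.

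The members and gene lists were chosen with earlier results of these data known. Named were all members, ERBB4, EPGN, NRG2, NRG3, NRG4 and TU64359, in each other list every gene past the threshold and the largest absolute differences up to 3 per list, the 5 genes with the highest Pearson's r with HBEGF, and markers with their list. ADAM10, CD9, RHBDF1, ETV5 and TU64390 were named outside this rule, after their values were seen. The replicates are separate piglets.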

Additional observations from a re-analysis of the deposited data

How the results depend on the processing

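The sign of the difference and its side of the threshold held for HBEGF, AREG, EGF and ERBB2 under every alternative that gave a value. HBEGF lay between 0.99 and 1.58 with all 6 samples and between 0.72 and 1.48 with 1 left out. BTC and TU64359 were past the threshold under no alternative. Both were listed at 0 in each fetal library, so their sign was all but fixed and nothing is read from it. Nor is anything read from the sign of AREG, which is in the mRNA table through Neonatal3 alone. The limit of FPKM above 1 in at least 3 samples left 4 of the 9 members, HBEGF, EGFR, ERBB2 and ERBB3, so the other 5 had no value under it. The number of members past the threshold was 1, EGFR, in place of 0 under median-of-ratios scaling and under quantile normalization, and 0 with any 1 sample left out. Adaptors and kinases gave 1 in place of 0 under both of these scalings, GAB1, and receptor restraint genes gave 1, LRIG1, under quantile normalization. Release genes past the threshold were 3 in place of 2 with that limit of FPKM, through RHBDF2 (adjusted p = 0.0441), and under quantile normalization, through ADAM10 (adjusted p = 0.0412), 1 under median-of-ratios scaling and 0 to 1 with 1 sample left out. MAP kinase targets were 0 to 2 in place of 1 with 1 sample left out, where CCND1 stayed past the threshold without Neonatal1 alone. Over all mRNAs, 1001 calls became 196 to 944 with 1 sample left out. With 1 sample left out the difference also changed sign for 3 members that were never past the threshold: TGFA ranged from -0.85 to 1.22, NRG1 from -0.26 to 0.13 and ERBB3 from -0.23 to 0.12. The cause of these changes was not tested, and leaving out a sample changes both the number and the choice of samples.

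The replicate numbers pair no animals, since all sows differed, and deviations of same-numbered samples from their group means correlated at -0.0407, -0.0043 and 0.00047 over the mRNAs. With the replicate number as a block, 401 mRNAs were past the threshold, 0 release genes and 0 MAP kinase targets, with ADAM17 at an adjusted p of 0.119 and CCND1 at 0.0513, and the adjusted p was 0.132 for HBEGF and 0.218 for EGFR. Both tables lack read counts, which leaves the counting error of ligands under 1 FPKM unknown.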
